A study of Mus musculus with 9 samples.

Results

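The genes described here encode enzymes that write or erase chemical marks on histones and DNA. They were taken from the array by gene symbol: every probe set with a single gene symbol that begins with Hdac, Sirt, Dnmt, Tet, Kdm, Kmt, Kat, Prmt or Ezh followed by a digit. That gave 69 probe sets for 67 genes of the 22180 genes tested, and for the 2 genes with several probe sets (Kdm6b and Hdac11) the brighter one was used. One of the 67, Dnmt3aos, is a non-coding antisense gene and was put in no enzyme class. The other 66 fall into 13 classes. Another 6 probe sets name several genes at once and were not used, so Prmt2, Kat14 and Kdm2b are not analysed here.

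Transcript levels were measured on 9 Affymetrix arrays of microdissected anterior cingulate cortex, a medial frontal area, from C57BL/6J mice, an inbred laboratory strain. Ketamine mice (KT, 3 arrays) received 3 mg/kg ketamine intraperitoneally at ZT5, 5 h after lights-on. Sleep-deprived mice (SD, 3 arrays) spent the 12 h from ZT0 in a cage whose slowly turning bar prevented sleep, with no injection recorded in their labels. Control mice (3 arrays) received saline at ZT5. All brains were taken at ZT13, 8 h after either injection and 1 h after deprivation ended, so the effect of wakefulness, the hour after it and the absence of an injection cannot be told apart in the sleep-deprived group. The titles call the replicates biological, and ages and sexes are not given in the labels used here. In bulk tissue, fewer cells of a type and less RNA per cell cannot be told apart.

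Histone acetylation is added by lysine acetyltransferases and removed by zinc-dependent deacetylases (HDACs) and by the sirtuins, which need NAD+. Histone methylation is written by lysine (KMT, EZH) and arginine (PRMT) methyltransferases and erased by the KDM demethylases. DNA methylation is set by DNMT enzymes and oxidised by TET enzymes as the first step of its removal. In neurons these enzymes act on genes that respond to electrical activity, and HDAC inhibitors and ketamine have both been studied in animal models of depression.

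Cell type markers were read on each array. They were not chosen to tell the anterior cingulate from other cortical areas, so they do not check that label. The neuronal genes Slc17a7 (vesicular glutamate transporter) and Camk2a (a synaptic kinase) read between 2691 and 2965 and between 4766 and 5204 over the 9 arrays. The 12 neuronal markers summed to 35637 to 38248 on ketamine arrays, 35907 to 37382 on sleep-deprived arrays and 35985 to 37777 on saline arrays. Oligodendrocyte markers (12 measured) had summed intensities of 5502 to 9297 on ketamine arrays, 5561 to 6917 on sleep-deprived arrays and 6163 to 7336 on saline arrays. Endothelial markers (11) summed to 2409 to 2928 after ketamine, 3003 to 3177 after sleep deprivation and 2696 to 2996 after saline. The sleep-deprived range lay above both the ketamine and the saline range. The choroid plexus marker Ttr (transthyretin) read 207, 467 and 138 on ketamine arrays, 89.5, 104 and 428 on sleep-deprived arrays, and 1624, 8428 and 110 on saline arrays. Ttr is 1 of 8 choroid plexus and ependymal markers measured. Of these, 4 were higher and 4 lower after ketamine than after saline, with a median log2 difference of -0.0077. All 8 were lower after sleep deprivation than after saline, with a median of -0.16. The part of other cell types in the values below was not tested.

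The median intensity of an array was 97.7 at the lowest and 106.2 at the highest. Within a group, pairs of arrays had correlations from 0.986 to 0.995 over genes. Over the 14787 brighter genes, those left when the dimmest 33.3% are removed, the arrays did not sit level. Relative to the saline mean, the median of these genes on the log2 scale was 0.0092, -0.043 and -0.095 on ketamine arrays 1 to 3 and -0.029, 0.063 and -0.028 on sleep-deprived arrays 1 to 3. The enzyme genes belong mostly to the brighter genes (only 4 of 67 have a mean below the lowest array median), so every small shift below is read beside these values.

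No chromatin enzyme gene passed the test in any of the 3 comparisons as fitted to the deposited values. limma's moderated test with Benjamini-Hochberg adjustment over all 22180 genes called 0 of 67 members at adjusted p under 0.05 between ketamine and saline, between sleep deprivation and saline, and between ketamine and sleep deprivation. It called 0.0% of all genes in each of them. With array weights, which let arrays count unequally, Prmt6 and Prmt8 passed between ketamine and saline (adjusted p = 0.047 and 0.048 in limma), as 2 of 1439 genes called. The smallest adjusted p of a member was 0.870 between ketamine and saline, 1.00 between sleep deprivation and saline and 0.396 between ketamine and sleep deprivation. At unadjusted p under 0.05 there were 2 members between ketamine and saline, where 4.57% of all genes reached that level (2.21% higher and 2.35% lower after ketamine). Both members, Kdm5d and Prmt6, were lower after ketamine. There was 1 between sleep deprivation and saline, Tet3, with the higher value after sleep deprivation (3.52% of all genes, 1.8% higher and 1.72% lower). There were 6 between ketamine and sleep deprivation (9.48% of all genes), of which 5 were lower after ketamine (4.38% of all genes) and 1 higher (5.1%). As shares of the 67 members these are 2.99%, 1.49% and 8.96%, each under the share among all genes.

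The precision sets what these arrays could show. Differences are given as differences of log2(intensity + 16) ± SE from the fit, with 3 arrays per group, and the offset of 16 understates the change of dim genes. The half-width of the 95% interval of a member's difference lay between 0.19 and 0.29, with a median of 0.22. The fitted difference was under 0.2 in size for 62 members between ketamine and saline, for 65 between sleep deprivation and saline and for 58 between ketamine and sleep deprivation. The interval reached past 0.5 in size for 3, 1 and 6 members in these comparisons, and past 1 for 0 members. A log2 difference of 1 thus lay outside the interval of every member in the 3 comparisons. A fitted difference smaller than a gene's half-width did not reach unadjusted p under 0.05 in limma. Larger differences could still miss the adjusted threshold, as did Kdm6b between ketamine and sleep deprivation (-0.43, half-width 0.29, adjusted p = 0.397).

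**Figure D1:**
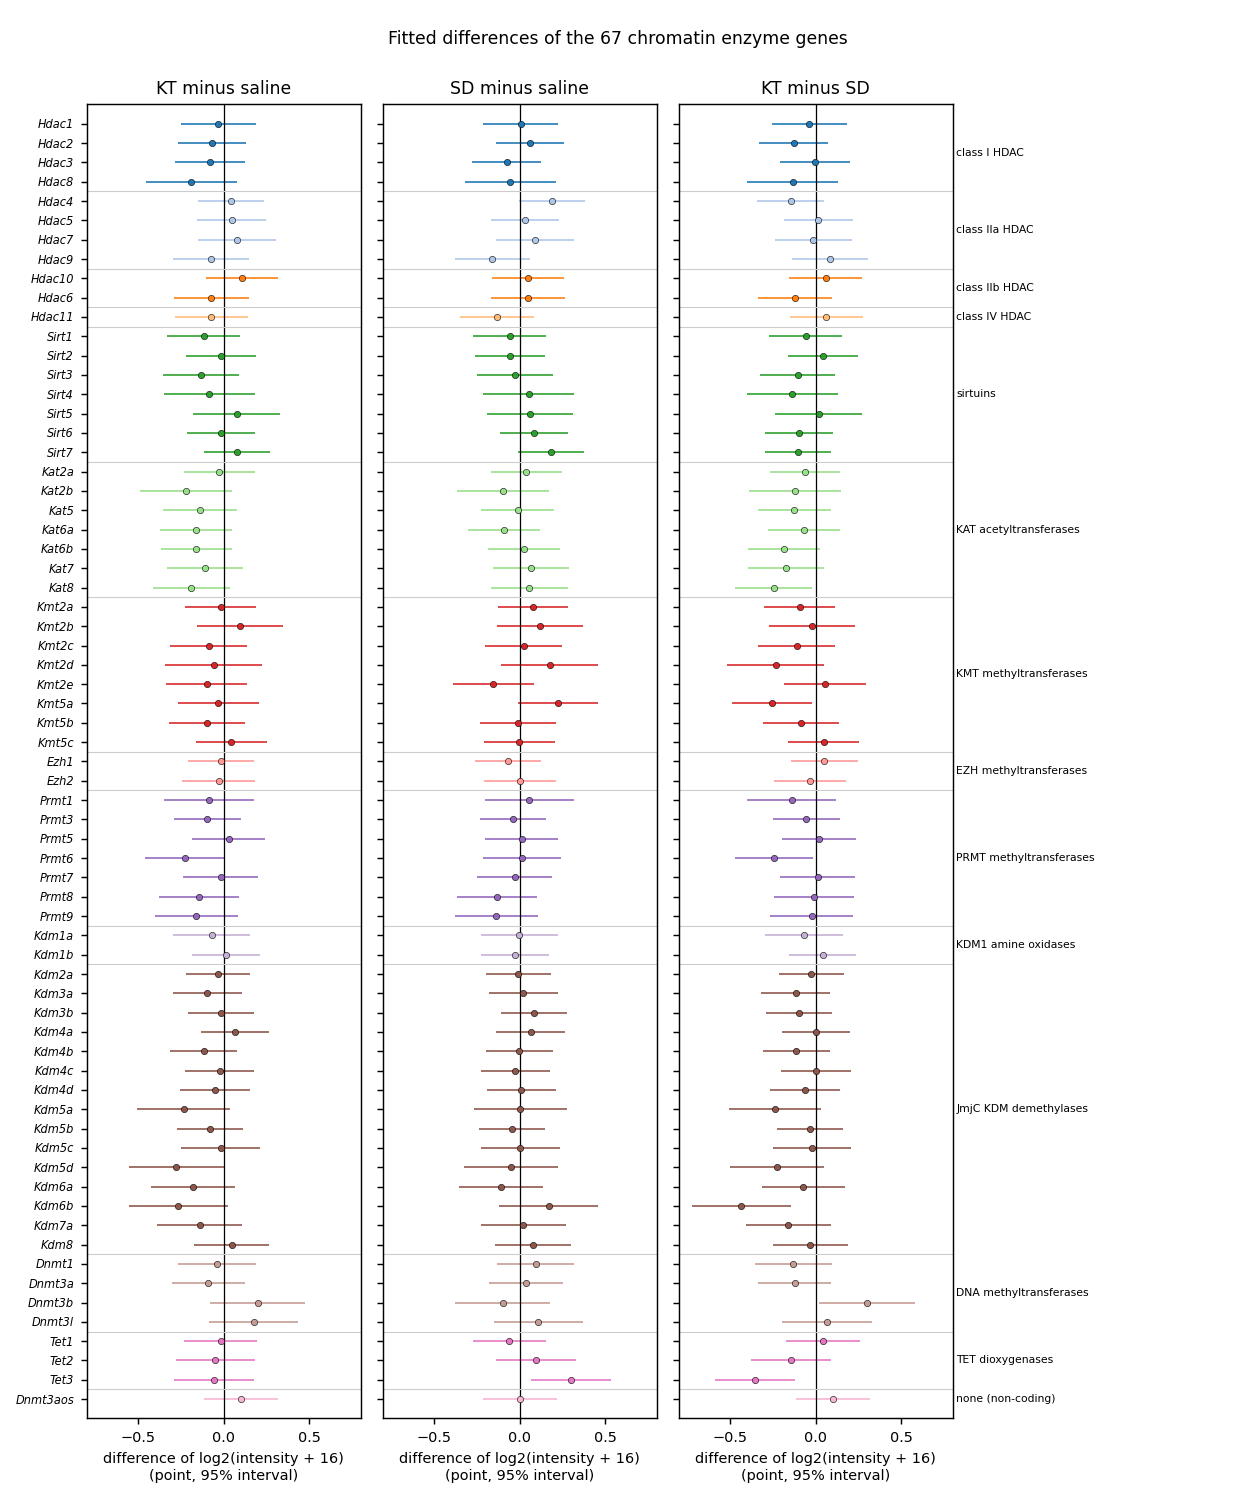
Fitted difference of log2(intensity + 16) for each of the 67 genes (rows, grouped and coloured by enzyme class) in the 3 comparisons (panels); points are limma estimates and bars 95% intervals, with 3 arrays per group. Most intervals cross 0, the farthest point is Kdm6b at -0.43 between ketamine and sleep deprivation, and no gene passed adjusted p 0.05.

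Tet3 and Prmt6 are the 2 members that reached unadjusted p under 0.05 in 2 comparisons, so their promoter windows are shown. The 2 comparisons share the sleep-deprived arrays for Tet3 and the ketamine arrays for Prmt6, so they are not independent of each other. The windows run from 250 bases before to 50 after the transcription start in RefSeq, build GRCm38.p6. Capitals mark CG dinucleotides, the sites at which DNMT enzymes methylate and TET enzymes oxidise cytosine. The Tet3 window lies at chr6:83441629-83441928 on the minus strand and holds 22 CG dinucleotides at 71.3% G and C. The Prmt6 window lies at chr3:110250950-110251249 on the minus strand and holds 16 at 55.0% G and C.
Tet3: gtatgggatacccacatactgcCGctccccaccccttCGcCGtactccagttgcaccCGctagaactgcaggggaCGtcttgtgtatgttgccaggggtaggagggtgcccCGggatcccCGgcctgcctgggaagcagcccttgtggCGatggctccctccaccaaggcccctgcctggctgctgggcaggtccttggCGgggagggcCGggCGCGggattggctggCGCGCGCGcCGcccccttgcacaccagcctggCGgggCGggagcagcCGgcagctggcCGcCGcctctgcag
Prmt6: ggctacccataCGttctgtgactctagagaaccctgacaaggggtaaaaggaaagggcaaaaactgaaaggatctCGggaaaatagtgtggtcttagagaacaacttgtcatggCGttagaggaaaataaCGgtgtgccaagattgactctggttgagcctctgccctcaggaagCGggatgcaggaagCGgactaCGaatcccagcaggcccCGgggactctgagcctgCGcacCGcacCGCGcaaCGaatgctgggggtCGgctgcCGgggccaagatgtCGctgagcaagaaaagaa

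Promoter windows of 300 bases were found for 56 members, the first listed start of each gene being used. Their median number of CG dinucleotides was 19.0, with a range from 0 (Hdac9 and Kdm4c) to 65 (Kdm7a), against 13.0 over the 16918 tested genes with a window. The half-site of the cAMP response element, TGACG on either strand, stood in 22 of 56 member windows (39.3%) and in 24.5% of all windows. It contains a CG, and the windows compared were not matched for CG number. The part of CG number in these shares was not tested. The full element TGACGTCA, which contains that half-site, stood in 1 member window, that of Prmt9 (1.79%), against 2.45% of all. The E-box CACGTG, bound by clock transcription factors, stood in 6 (10.7%) against 8.20%. Neither Tet3 nor Prmt6 had any of the 3 motifs in its window.

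TET dioxygenases turn methylated cytosine into hydroxymethylcytosine. Tet3 (probe set 17468157), a TET enzyme expressed in mature neurons, read 376, 383 and 384 on ketamine arrays, 463, 557 and 461 on sleep-deprived arrays, and 345, 432 and 420 on saline arrays. All 3 sleep-deprived arrays lay above all ketamine and all saline arrays, while the ketamine values lay inside the saline range. Sleep deprivation minus saline was 0.30 ± 0.11 (unadjusted p = 0.016 and adjusted p = 1.00 in limma), a mean of 494 ± 55.0 against 399 ± 47.5 (SD, 3 arrays). Ketamine minus sleep deprivation was -0.36 ± 0.11 (unadjusted p = 0.0056, adjusted p = 0.396), and ketamine minus saline -0.058 ± 0.11. With each array left out in turn, the difference between sleep deprivation and saline ranged from 0.20, without saline array 1, to 0.36, without saline array 2.

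The other two TET genes had smaller values. Tet2 was at 0.095 ± 0.11 between sleep deprivation and saline and at -0.14 ± 0.11 between ketamine and sleep deprivation. Tet1 was at -0.061 ± 0.10 and 0.043 ± 0.10 in the same comparisons, with the opposite signs.

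DNA methyltransferases divide into Dnmt1, which copies methylation after replication, Dnmt3a and Dnmt3b, which add new methylation, and Dnmt3l, a partner without catalytic activity of its own. Dnmt3b (probe set 17377963) read 61.1, 62.4 and 79.9 on ketamine arrays, 41.7, 51.7 and 63.8 on sleep-deprived arrays, and 58.2, 62.9 and 49.6 on saline arrays. The groups overlapped throughout. Ketamine minus sleep deprivation was 0.30 ± 0.13 (unadjusted p = 0.038, adjusted p = 0.507 in limma), the only one of the 6 members at that level with the higher value after ketamine. It was 0.18 without sleep-deprived array 1 (unadjusted p = 0.18) and 0.20 without ketamine array 3 (unadjusted p = 0.17), and 0.18 with an offset of 64. Its mean of 59.0 lies below the array medians, so the values come from a dim probe set.

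Dnmt1 and Dnmt3a, both well above the array medians, were at -0.039 ± 0.11 and -0.089 ± 0.10 between ketamine and saline. Between sleep deprivation and saline they were at 0.093 ± 0.11 and 0.035 ± 0.10. Dnmt3l was at 0.17 ± 0.12 and 0.11 ± 0.12 in these comparisons, and the antisense gene Dnmt3aos at 0.10 ± 0.10 and -0.00065 ± 0.10.

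**Figure D2:**
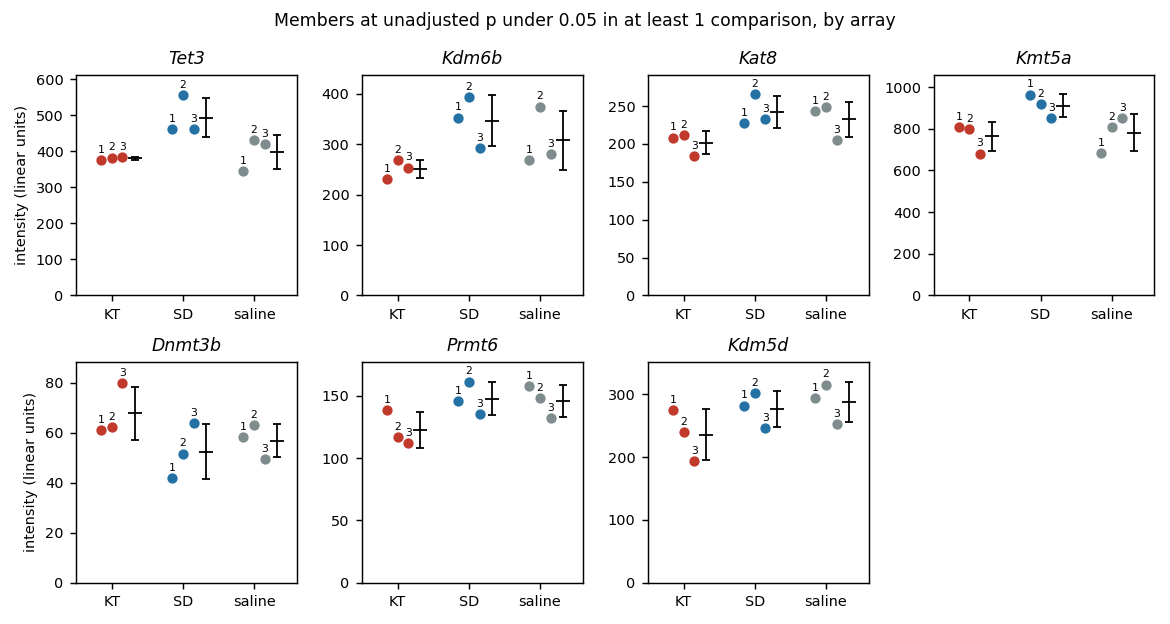
Intensity on each array (points, numbered by replicate) for the 7 genes at unadjusted p under 0.05 in at least 1 comparison, with the mean and SD of the 3 arrays of each group beside them. Tet3 is highest on the 3 sleep-deprived arrays, at 461 to 557, and Kdm6b is lowest on the 3 ketamine arrays, at 231 to 268.

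The JmjC demethylases are iron-dependent enzymes that remove methyl groups from histone lysines. Kdm6b (probe set 17264651), which erases the polycomb mark on histone H3 and is an inducible gene in many cell types, read 231, 268 and 253 on ketamine arrays, 353, 394 and 292 on sleep-deprived arrays, and 268.4, 374 and 279 on saline arrays. All ketamine arrays lay below all sleep-deprived and all saline arrays, the gap to the lowest saline array being less than 1 unit. Ketamine minus sleep deprivation was -0.43 ± 0.13 (unadjusted p = 0.0061, adjusted p = 0.397 in limma), and it stayed between -0.55 and -0.34 when each array was left out in turn. Ketamine minus saline was -0.26 ± 0.13 (unadjusted p = 0.068) and sleep deprivation minus saline 0.17 ± 0.13 (unadjusted p = 0.23).

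The dimmer Kdm6b probe set read 77.1, 95.3 and 70.5 on ketamine arrays, 97.5, 90.2 and 84.8 on sleep-deprived arrays, and 64.6, 90.0 and 86.0 on saline arrays. There the ketamine and sleep-deprived arrays overlapped, so the probe sets of this gene do not agree on a separation of the groups. Kdm6a, the X-linked demethylase of the same mark, was at -0.18 ± 0.11 between ketamine and saline and -0.11 ± 0.11 between sleep deprivation and saline.

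The Kdm5 genes encode demethylases of the mark of active promoters on histone H3, with Kdm5c on the X and its partner Kdm5d on the Y chromosome. Kdm5d (probe set 17546287) read 274, 239.6 and 193 on ketamine arrays, 282, 302 and 247 on sleep-deprived arrays, and 294, 316 and 253 on saline arrays. The groups overlapped, and ketamine array 3 was lowest. Ketamine minus saline was -0.28 ± 0.13 (unadjusted p = 0.049, adjusted p = 0.870 in limma), and without ketamine array 3 it was -0.15.

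Kdm5a was at -0.23 ± 0.13 and Kdm5b at -0.080 ± 0.09 in that comparison, and Kdm5c, the X-linked partner, at -0.018 ± 0.11. Kdm5a was one of 3 JmjC genes whose ketamine arrays all lay below the saline arrays, beside Kdm6b and Kdm4b (-0.12 ± 0.09). Of all genes 7.89% were lower in this way. The remaining JmjC genes, Kdm2a, Kdm3a, Kdm3b, Kdm4a, Kdm4c, Kdm4d, Kdm7a and Kdm8, lay between -0.14 and 0.066. In the class, 13 of 15 genes had a lower mean after ketamine than after saline (median -0.080), and 9 of 15 a higher mean after sleep deprivation than after saline (median 0.0040). After quantile normalization, which gives all arrays one distribution, the ketamine median was -0.017 with 9 of 15 lower, and the sleep deprivation median was -0.0044, a change of sign.

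The flavin-dependent demethylases had no value that stood out. Kdm1a (LSD1, a subunit of the CoREST corepressor), the member of its class with the smallest unadjusted p, read 505, 494 and 422 on ketamine arrays, 535, 526 and 434 on sleep-deprived arrays, and 489.6, 505.2 and 497 on saline arrays. Its differences were -0.071 ± 0.11, -0.0026 ± 0.11 and -0.068 ± 0.11 for ketamine minus saline, sleep deprivation minus saline and ketamine minus sleep deprivation. Kdm1b lay between -0.027 and 0.040.

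The acetyltransferases were the class with the lowest median between ketamine and saline. All 7 measured genes had a lower mean after ketamine than after saline, with a median of -0.16 and a range from -0.22 to -0.025. Without ketamine array 3 the median was -0.084, and with array weights -0.098. By comparison the median was -0.059 over all members, -0.041 over the brighter genes and -0.015 over all genes tested. Of the brighter genes 64.5% were lower, and of all genes 54.6%. The members were Kat2a and Kat2b (GCN5 and PCAF), Kat5 (TIP60), Kat6a and Kat6b (MOZ and MORF), Kat7 (HBO1) and Kat8 (MOF). For Kat5 (-0.14 ± 0.10) and Kat6b (-0.16 ± 0.10) the 3 ketamine arrays lay below the 3 saline arrays, as in 7.89% of all genes. Of the 7 genes, 0 reached unadjusted p under 0.05 and limma called 0.

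Kat8 (probe set 17483532), which acetylates histone H4, read 208, 212 and 184 on ketamine arrays, 227, 266 and 232 on sleep-deprived arrays, and 243, 248 and 206 on saline arrays. The ketamine arrays all lay below the sleep-deprived arrays and overlapped the saline arrays. Ketamine minus sleep deprivation was -0.25 ± 0.10 (unadjusted p = 0.034, adjusted p = 0.495 in limma), and ketamine minus saline was -0.19 ± 0.10 (unadjusted p = 0.091). With array weights the difference between ketamine and sleep deprivation was -0.16 (unadjusted p = 0.14), and it was -0.18 after quantile normalization (unadjusted p = 0.051).

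The class median of the acetyltransferases relative to saline was -0.075, -0.11 and -0.29 on ketamine arrays 1 to 3, and -0.024, 0.15 and -0.069 on sleep-deprived arrays 1 to 3. Saline arrays stood at -0.052, 0.030 and -0.0086. Ketamine array 3 was thus lowest and sleep-deprived array 2 highest, the same arrays that are lowest and highest over the brighter genes. After quantile normalization the class median between ketamine and saline was -0.076 with 6 of 7 lower, and between ketamine and sleep deprivation it was -0.096 with 5 of 7 lower, against -0.13 with 7 of 7 as deposited. Between sleep deprivation and saline the median was 0.026, with 4 of 7 higher.

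**Figure D3:**
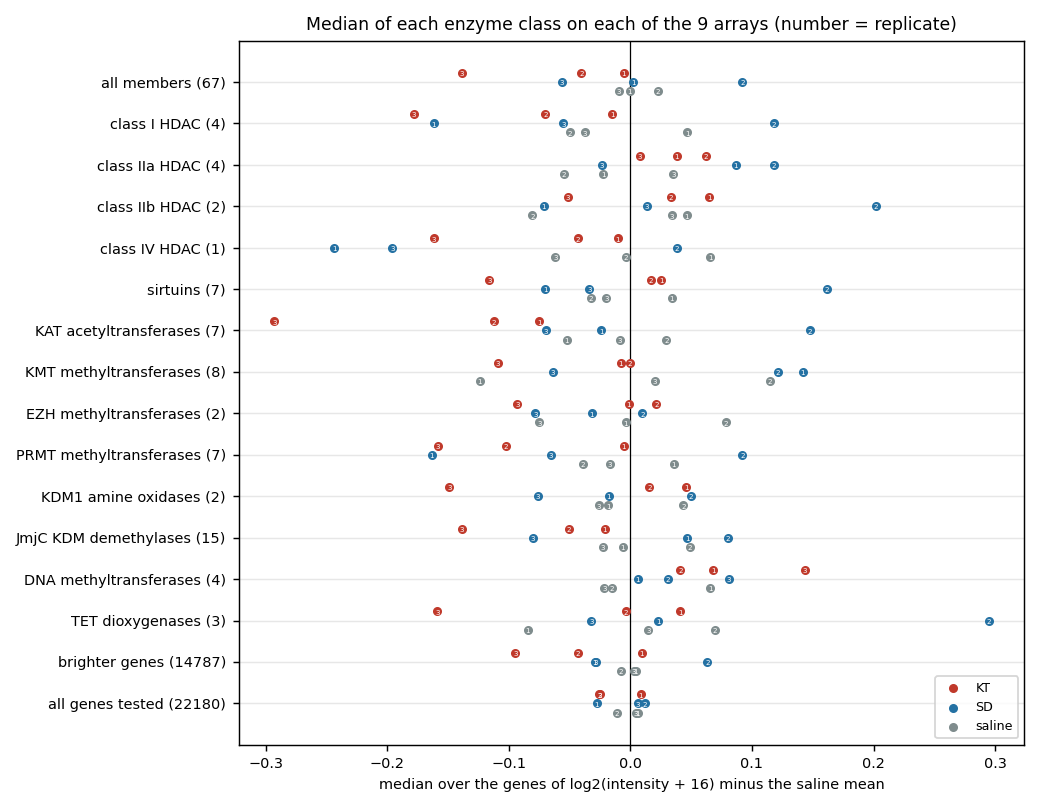
Median over the genes of each enzyme class (rows, number of genes in brackets) of log2(intensity + 16) minus the saline mean, on each array (points, numbered by replicate; red KT, blue SD, grey saline). Ketamine array 3 is lowest for the acetyltransferases at -0.29, and sleep-deprived array 2 is the highest array in most rows.

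Of class I, Hdac1, Hdac2 and Hdac3 encode nuclear deacetylases of corepressor complexes, and class IIa enzymes shuttle between nucleus and cytoplasm when phosphorylated. All 4 class I genes were lower after ketamine than after saline, with a median of -0.075, which was -0.0062 with 3 of 4 lower after quantile normalization. Hdac1 was at -0.032 ± 0.10, Hdac2 at -0.069 ± 0.09 and Hdac3, the enzyme of the NCoR complex, at -0.081 ± 0.09. Hdac8 (probe set 17543675) read 269, 228 and 182 on ketamine arrays, 229, 275 and 241 on sleep-deprived arrays, and 257, 266 and 250.4 on saline arrays. Ketamine minus saline was -0.19 ± 0.12 with overlapping groups, since ketamine array 1 was above every saline array. Between sleep deprivation and saline the class median was -0.025, with 2 of 4 lower.

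The class IIa genes did not share that sign. Of Hdac4, Hdac5, Hdac7 and Hdac9, 3 had a higher mean after ketamine than after saline (median 0.044, and 0.11 after quantile normalization) and 3 a higher mean after sleep deprivation (median 0.060). Hdac4 (probe set 17225535) read 621, 599 and 568 on ketamine arrays, 693, 677 and 615 on sleep-deprived arrays, and 575, 555 and 604 on saline arrays. All sleep-deprived arrays lay above all saline arrays, and the difference was 0.19 ± 0.09 (unadjusted p = 0.055, adjusted p = 1.00 in limma). Ketamine minus saline was 0.043 ± 0.09. Hdac9 went the other way at -0.16 ± 0.10 after sleep deprivation, with Hdac5 at 0.031 ± 0.09 and Hdac7 at 0.090 ± 0.11.

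Classes IIb and IV hold 3 genes. Hdac6, the cytoplasmic tubulin deacetylase, read 269.5, 257 and 240.4 on ketamine arrays, 266, 319 and 257 on sleep-deprived arrays, and 278, 254 and 277 on saline arrays, with overlapping groups. Hdac10, a polyamine deacetylase, was at 0.10 ± 0.10 between ketamine and saline, where its ketamine arrays all lay above the saline arrays, and at 0.047 ± 0.10 between sleep deprivation and saline. Hdac11 (class IV) read 564, 551 and 506 on ketamine arrays, 477, 584 and 494 on sleep-deprived arrays, and 595, 567 and 544 on saline arrays. Its difference was -0.072 ± 0.10 after ketamine and -0.13 ± 0.10 after sleep deprivation, and its dimmer probe set read 134, 124 and 150.5 on ketamine arrays, 163, 124 and 140.4 on sleep-deprived arrays, and 144, 138 and 143 on saline arrays.

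Sirtuins link deacylation to the NAD+ supply: Sirt1, Sirt6 and Sirt7 are mainly nuclear, Sirt2 mainly cytoplasmic, and Sirt3, Sirt4 and Sirt5 mitochondrial. Sirt7 (probe set 17273216) read 148, 147 and 144 on ketamine arrays, 158, 172 and 146 on sleep-deprived arrays, and 141, 137 and 135 on saline arrays. Every ketamine and every sleep-deprived array lay above every saline array. The differences from saline were nevertheless small, 0.078 ± 0.09 after ketamine (unadjusted p = 0.40) and 0.18 ± 0.09 after sleep deprivation (unadjusted p = 0.061, adjusted p = 1.00 in limma). These comparisons share the saline arrays, so they are not independent of each other.

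Among the other sirtuins, Sirt1, the best studied nuclear deacetylase of the family, was at -0.12 ± 0.10 after ketamine and -0.060 ± 0.10 after sleep deprivation. Sirt2, whose protein is abundant in myelin-forming oligodendrocytes, was at -0.014 ± 0.10 and -0.057 ± 0.10. The mitochondrial Sirt3, Sirt4 and Sirt5 were at -0.13 ± 0.10, -0.085 ± 0.12 and 0.076 ± 0.12 after ketamine, and Sirt6 was at -0.014 ± 0.09. The class median was -0.014 after ketamine (0.026 after quantile normalization) and 0.052 after sleep deprivation. Without sleep-deprived array 2 the median after sleep deprivation was -0.051.

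Of the KMT2 group, Kmt2a to Kmt2d encode lysine methyltransferases that write the active mark at promoters and enhancers, and the KMT5 enzymes methylate histone H4. Kmt5a (probe set 17442507), which adds the initial methyl group, read 809, 798 and 681 on ketamine arrays, 963, 917 and 851 on sleep-deprived arrays, and 682, 807 and 852 on saline arrays. The ketamine arrays lay below the sleep-deprived arrays and within the saline range apart from array 3, and the highest saline array was just above the lowest sleep-deprived one. Ketamine minus sleep deprivation was -0.25 ± 0.11 (unadjusted p = 0.036, adjusted p = 0.503 in limma), and sleep deprivation minus saline was 0.22 ± 0.11 (unadjusted p = 0.060). The enzymes that add further methyl groups, Kmt5b and Kmt5c, were at -0.0096 ± 0.10 and -0.0028 ± 0.10 after sleep deprivation.

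Of the KMT2 genes, Kmt2d was at 0.17 ± 0.13, Kmt2b at 0.12 ± 0.12, Kmt2a at 0.077 ± 0.10, Kmt2c at 0.024 ± 0.10 and Kmt2e at -0.15 ± 0.11 between sleep deprivation and saline. Between ketamine and saline they lay between -0.10 (Kmt2e) and 0.096 (Kmt2b). The EZH enzymes, the catalytic subunits of the polycomb complex that methylates histone H3, had differences under 0.1 in size. Ezh1 read 845, 810.5 and 746 on ketamine arrays, 738, 819.6 and 758 on sleep-deprived arrays, and 821, 808 and 799 on saline arrays, and Ezh2 was at -0.031 ± 0.10 after ketamine and 0.0019 ± 0.10 after sleep deprivation.

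Arginine methyltransferases modify histones and many RNA-binding proteins. Prmt6 (probe set 17409493), which methylates the tail of histone H3, read 139, 117 and 112 on ketamine arrays, 146, 162 and 135 on sleep-deprived arrays, and 158, 148 and 132 on saline arrays. Ketamine arrays 2 and 3 lay below every other array, and ketamine array 1 lay inside the ranges of the other groups. Ketamine minus saline was -0.23 ± 0.11 (unadjusted p = 0.0499, adjusted p = 0.870 in limma) and ketamine minus sleep deprivation -0.24 ± 0.11 (unadjusted p = 0.039, adjusted p = 0.514). Sleep deprivation minus saline was 0.014 ± 0.11.

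The brain-enriched Prmt8 was at -0.15 ± 0.11 after ketamine and -0.13 ± 0.11 after sleep deprivation, and Prmt9 at -0.16 ± 0.11 and -0.14 ± 0.11. Prmt1, the main asymmetric enzyme, was at -0.086 ± 0.12 and 0.056 ± 0.12, while Prmt5, the main symmetric enzyme, was at 0.029 ± 0.10 and 0.011 ± 0.10. Prmt3 and Prmt7 were at -0.096 ± 0.09 and -0.019 ± 0.10 after ketamine. The class median was -0.096 after ketamine (-0.018 after quantile normalization) and -0.030 after sleep deprivation.

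Over all 67 members, 52 had a lower mean after ketamine than after saline, with a median of -0.059, and 38 a higher mean after sleep deprivation than after saline, with a median of 0.010. Between ketamine and sleep deprivation 49 were lower on the ketamine side, with a median of -0.068. Among all genes 54.6% were lower in the comparison of ketamine with saline, 53.4% in that of sleep deprivation with saline and 53.0% in that of ketamine with sleep deprivation, with medians of -0.015, -0.0088 and -0.012. Of the brighter genes 64.5%, 52.0% and 63.1% were lower in these comparisons, with medians of -0.041, -0.0044 and -0.041. After quantile normalization 33 of 67 members were lower after ketamine than after saline (median 0.0070) and 34 of 67 lower than after sleep deprivation (median -0.0017), so the downward shift of the list was not present on that scaling. It was present after centring each array on its median (-0.066 and -0.077).

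**Figure D4:**
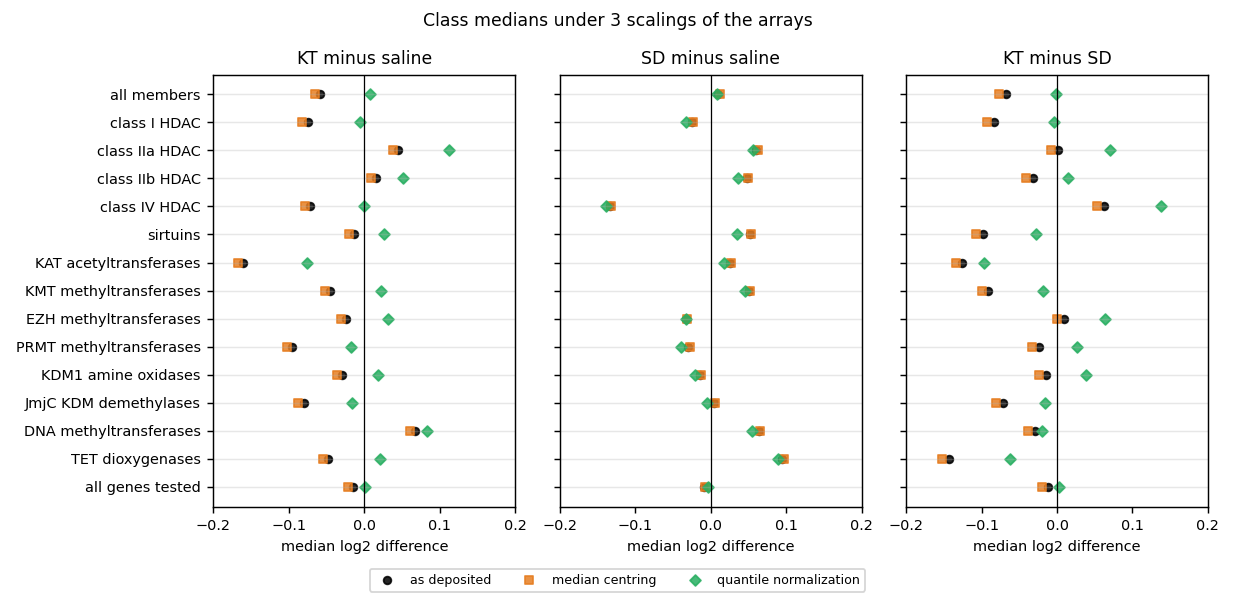
Median fitted log2 difference of each enzyme class, of all members and of all genes (rows) in the 3 comparisons (panels), with the values as deposited (black circles), after centring arrays on their medians (orange squares) and after quantile normalization (green diamonds). Quantile normalization takes the median of all members to 0.0070 between ketamine and saline. On that scaling the acetyltransferases have the lowest class median at -0.076. The PRMT (-0.018), JmjC (-0.017), class I HDAC (-0.0062) and class IV HDAC (-0.00063) medians also stay below 0.

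By array, the median of all members relative to saline was -0.0053, -0.040 and -0.14 on ketamine arrays 1 to 3 and 0.0024, 0.092 and -0.057 on sleep-deprived arrays 1 to 3. Saline arrays stood at -0.00051, 0.023 and -0.0091. Without ketamine array 3 the members' median between ketamine and saline was -0.024, and without sleep-deprived array 2 it was -0.030 between sleep deprivation and saline. The groups did not overlap for 7 members between ketamine and saline (14.4% of all genes did not), for 3 between sleep deprivation and saline (7.11%), and for 4 between ketamine and sleep deprivation (10.1%). The 7 were Kat5, Kat6b, Kdm4b, Kdm5a and Kdm6b, lower after ketamine (7.89% of all genes), and Hdac10 and Sirt7, higher (6.48%). The 3 were Tet3, Hdac4 and Sirt7, all higher after sleep deprivation (3.57% of all genes were higher in this way and 3.54% lower). The 4 were Kdm6b, Tet3, Kat8 and Kmt5a, all lower after ketamine (5.54% of all genes were lower and 4.53% higher).

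Other genes of the same machinery, which the symbol rule does not reach, gave no call either. limma called 0 of 104 genes in 7 lists at adjusted p under 0.05 in any comparison, and 3 between ketamine and saline, 3 between sleep deprivation and saline and 9 between ketamine and sleep deprivation reached unadjusted p under 0.05. These are 2.88%, 2.88% and 8.65% of the list genes, each under the share among all genes (4.57%, 3.52% and 9.48%), so the genes named next are given as values. Dot1l, the methyltransferase of the histone H3 core, read 430, 440 and 405 on ketamine arrays, 565, 600 and 506 on sleep-deprived arrays, and 386, 488 and 466 on saline arrays. Sleep-deprived arrays were above all others, at 0.31 ± 0.11 against saline (unadjusted p = 0.011), and ketamine minus sleep deprivation was -0.38 ± 0.11 (unadjusted p = 0.0034, adjusted p = 0.376 in limma). Ing5, a subunit of acetyltransferase complexes with Kat6a, Kat6b and Kat7, had the same pattern, at 0.26 ± 0.10 between sleep deprivation and saline and -0.35 ± 0.10 between ketamine and sleep deprivation. Its scaffold partners Brd1 and Brpf1 were at -0.22 ± 0.10 and -0.21 ± 0.09 between ketamine and sleep deprivation.

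Among the 18 corepressor subunits measured, Sap30 of the Sin3 complex was at -0.35 ± 0.10 (unadjusted p = 0.0031, adjusted p = 0.376 in limma) and Mta2 of the NuRD complex at -0.21 ± 0.09 between ketamine and sleep deprivation. Eed, the polycomb subunit that binds the methylated histone tail, was at -0.24 ± 0.10. The acetyl-lysine readers, bromodomain proteins that bind acetylated histones, were all lower on the ketamine side in this comparison, 13 of 13 with a median of -0.11. Other acetyltransferases and cofactors were lower in 14 of 14 (median -0.076). The shift was not particular to these lists. Other demethylases were lower in 8 of 8 (median -0.076), other histone methyltransferases in 19 of 22 (-0.092) and polycomb partners in 14 of 17 (-0.091). Corepressor subunits were lower in 14 of 18 (-0.059) and genes that read or repair methylated DNA in 9 of 12 (-0.064). Of all genes 53.0% were lower, and of the brighter genes 63.1% (median -0.041). After quantile normalization, applied to these lists after the data were seen, 9 of 13 readers (median -0.055) and 8 of 14 acetyltransferases and cofactors (median -0.0069) were lower. So were 4 of 8 demethylases (median 0.0065), 13 of 22 histone methyltransferases (-0.025) and 11 of 17 polycomb partners (-0.025). For corepressor subunits it was 9 of 18 (0.0030), and for methylated-DNA genes 6 of 12 (0.015). As deposited, 1 of 13 readers and 3 of 14 acetyltransferases and cofactors were at unadjusted p under 0.05 in limma. All of these were lower, where 4.38% of all genes were lower at that level.

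Of the genes that read or repair methylated DNA, Gadd45b and Gadd45g, which take part in active demethylation and respond to neuronal activity, were at -0.35 ± 0.12 and -0.30 ± 0.13 between ketamine and saline. Gadd45g was also at -0.35 ± 0.13 between sleep deprivation and saline. Uhrf1, the partner of Dnmt1 at replicated DNA, was at 0.30 ± 0.13 between ketamine and sleep deprivation, where Dnmt1 was at -0.13 ± 0.11. Cecr2, a bromodomain protein, was at -0.27 ± 0.09 between ketamine and saline. Of the endothelial markers, set beside these values, 7 of 11 were lower at unadjusted p under 0.05 between ketamine and sleep deprivation, as were 4.38% of all genes. All 11 were lower (median -0.24), against 53.0% of all genes and 63.1% of the brighter ones. After quantile normalization, applied after the data were seen, 10 of the 11 were lower (median -0.20). On that scaling 6 of 11 reached unadjusted p under 0.05 in limma, as did 10.0% of all genes. The part of vessel cells in the values above was not tested.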

How the data were processed

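Per the labels, total RNA of dissected anterior cingulate cortex was hybridised to 9 Affymetrix arrays, 3 per group. Affymetrix Expression Console 1.1.1 and PLIER 2.0, which reduces a probe set to 1 value, are named in the submitters' processing notes. The deposited table holds 41345 probe sets as linear intensity, used here as deposited. The sources used here do not give its background correction or between-array normalization. The labels used here number the samples group by group and do not give the order of processing. An order that followed these numbers could not be told apart from group.

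All fits used log2(intensity + 16), computed from the deposited values. Platform annotation gave 23521 probe sets with 1 gene symbol, 1814 with several and 16010 with none. Symbols were updated through gene identifiers to RefSeq names (21994 of 22180 genes matched, and 0 member symbols changed), and the brightest probe set per gene was kept. limma 3.58.1 in R 4.3.3 was fitted to all 9 arrays in 1 model with 6 residual degrees of freedom, no replicate block and adjustment over all genes. The fit was checked on simulated data. Members given by array are those at unadjusted p under 0.05 in any comparison and, in each class, the one with the smallest p. From the other lists, members at unadjusted p under 0.05 are named, up to 3 per list and comparison. The members and lists were chosen with earlier results of these data known. Some list genes are not reported here, and 3 genes of the methyltransferase list, listed there by older symbols, were already members. Alternatives covered scaling, offsets of 1 and 64, removal of dim genes, probe set averaging, symbols, limma-trend, array weights, a replicate block, the 2 groups compared alone and each array left out.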

Additional observations from a re-analysis of the deposited data

How the results depend on the processing

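No member passed adjusted p 0.05 under the alternatives in any comparison, with 1 exception. With array weights, where ketamine array 2 took a weight of 7.92, limma called 2 members lower after ketamine than after saline, Prmt6 (-0.25, adjusted p = 0.047) and Prmt8 (-0.24, adjusted p = 0.048), among 1439 genes called, and 12 members (17.9%) reached unadjusted p under 0.05, as did 27.4% of all genes. That count was 0 with an offset of 1 (4.04% of all genes) and 1 after quantile normalization (5.24%). Between sleep deprivation and saline it was 3 with array weights, with limma-trend and with an offset of 64 (4.48% of members, against 6.19%, 3.63% and 3.53% of all genes). It was 4 of 64 without the dimmest 33.3% of genes (6.25% against 3.64%), 2 with an offset of 1 (2.99% against 3.52%) and 5 after quantile normalization (7.46% against 5.18%). Between ketamine and sleep deprivation it was 3 after quantile normalization (4.48% against 10.0%). With each array left out in turn it ranged from 0 to 5 (2.05% to 8.44% of all genes), from 0 to 4 (2.57% to 9.37%) and from 2 to 10 (5.0% to 21.5%) in the comparisons of ketamine with saline, sleep deprivation with saline and ketamine with sleep deprivation. The members' median went to 0.0070 and -0.0017 after quantile normalization in the comparisons of ketamine with saline and with sleep deprivation. Leaving out arrays, it ranged from -0.093 to -0.024, from -0.030 to 0.044 and from -0.12 to -0.025. The cause of these changes was not tested. No gene at unadjusted p under 0.05 changed sign under any alternative (0 reversed). The median of the DNA methyltransferases was 0.068 between ketamine and saline but -0.064 without the dimmest genes, which takes out Dnmt3b and Dnmt3l. With the replicate block the members at unadjusted p under 0.05 were 3, 1 and 8 (5.65%, 4.0% and 11.1% of all genes). The titles do not say whether same-numbered arrays were paired. Deviations of same-numbered arrays correlated between -0.20 and 0.44, highest between ketamine array 3 and sleep-deprived array 3, and this range does not settle the pairing. Brightness limits the dim probe sets, Dnmt3b, Dnmt3l, Kdm4d and Dnmt3aos.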
